A study of Oryza sativa Japonica Group with 4 samples.

Results

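The regions described here are CG hyper-DMRs of rice that were neither empty nor full of CG methylation before treatment. A hyper-DMR is a differentially methylated region whose mean methylation level was higher after incubation of the DNA with the methyltransferase M.CviP I than in the matching CK DNA. The regions were selected on their CG level in the CK library, at least 0.2 and under 0.6, and this rule gave 13644 of 115672 CG hyper-DMRs, or 11.8%. They are called intermediate regions below. The hyper-DMR list held 1056015 regions in all sequence contexts. The other CG hyper-DMRs served as comparison: 85501 had a CK level under 0.05, 14680 a CK level from 0.05 to under 0.2, and 1847 a CK level of 0.6 or more.

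Both libraries behind these regions came from genomic DNA of Nipponbare rice seedlings. The general plant material of the study was soil-grown seedlings, and the M.CviP I reaction is not tied to seedlings of a stated age. In the M.CviP I reaction, 4 μg of purified DNA met 8 units of enzyme and 640 μM of the methyl donor S-adenosyl-methionine (SAM) for 1 h at 37°C in 20 μl, so the enzyme acted on naked DNA in a tube and not in a plant. The CK DNA is the corresponding DNA without this treatment. A second pair of libraries, from 5-d-old seedlings kept for 5 days in 80 μM zebularine (an inhibitor of DNA methyltransferases, dissolved in DMSO) and from seedlings that received DMSO alone, gave a list of 182125 CG hypo-DMRs, which are regions that lost CG methylation. From each of the 4 samples, 5 μg of DNA went into bisulfite treatment. Each condition has 1 library, so no difference between treated and CK DNA below has a replicate check, and no test of the treatment was run. Levels are means over the CG sites of a region as a fraction from 0 to 1, and the number of reads behind them is unknown beyond the minimum of 3 reads per position. Intervals given below cover the counting of regions only, and neighbouring regions are not independent.

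In plants, cytosines are methylated in the CG, CHG and CHH contexts, where H is A, C or T. CG methylation is copied after replication by maintenance methyltransferases of the MET1 family, CHG methylation by chromomethylases, and CHH methylation is set anew by chromomethylases and by the RNA-directed pathway. Silent transposons usually carry all of these marks, whereas the bodies of many expressed genes carry CG methylation alone. A mean CG level between empty and full can arise in different ways: some CG sites of the region are methylated in nearly all cells and others in none, or every site is methylated in a part of the cells. M.CviP I is known as a methyltransferase of GpC sites, although the labels describe it as acting on CpG. A CG site can lie in a GpC site only where a G precedes it, and the genome sequence needed to count such sites was not used here.

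The CK level chose the regions and is given only as a description. Its median was 0.328, with quartiles of 0.257 and 0.423. The counts fell across the chosen range: 5602 regions had a CK level from 0.2 to under 0.3, 3910 from 0.3 to under 0.4, 2586 from 0.4 to under 0.5 and 1546 from 0.5 to under 0.6. Neither bound of the range fell at a gap in the distribution. In steps of 0.01, 659 regions lay just below 0.2 and 643 just above it, and 117 lay just below 0.6 and 114 just above it. The regions on either side of a bound had similar values. Just below and just above 0.2 the median treated levels were 0.658 and 0.660, and just below and just above 0.6 they were 0.847 and 0.853. Several regions tied for the nearest place to each bound, with 5 at 0.1997, 43 at 0.2, 2 at 0.5998 and 8 at 0.6, and those with the smallest p-value are named. At the lower bound, a region on chromosome 6 (1986772 to 1987255) at 0.1997 in CK and 0.740 after treatment was left out, and a region on chromosome 4 (8233017 to 8233472) at 0.2 and 0.793 was kept. At the upper bound, a region on chromosome 1 (23434366 to 23434854) at 0.5998 in CK and 0.839 after treatment was kept, and a region on chromosome 7 (24947286 to 24947611) at 0.6 and 0.908 was left out.

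After M.CviP I treatment, the intermediate regions reached a median CG level of 0.736 (95% interval 0.734 to 0.738), with quartiles of 0.663 and 0.804 and extremes of 0.354 and 1. The median gain was 0.375 (0.372 to 0.377), with quartiles of 0.310 and 0.448. A region that starts higher has less room to gain, and the gain was therefore also expressed as the filled share, the difference divided by 1 minus the CK level. A filled share of 1 means that all methylation missing in CK was present after treatment. Its median over the intermediate regions was 0.588 (0.585 to 0.590), with quartiles of 0.501 and 0.676. Few regions became full, and 374 regions, or 2.74%, had a treated level of 0.9 or more.

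The filled share was lower in the intermediate regions than in regions that were empty in CK. With CK levels under 0.05 the median filled share was 0.730, from 0.05 to under 0.2 it was 0.576, and with 0.6 or more it was 0.668. Over all CG hyper-DMRs it was 0.691. Within the intermediate range it rose slowly, from 0.571 at CK levels of 0.2 to 0.3 through 0.588 and 0.595 to 0.620 at 0.5 to 0.6. The list holds only differences of at least 0.1, and a difference of 0.1 is a larger filled share where the CK level is higher. Among the intermediate regions, 1.34% gained less than 0.2, against 62.7% of the regions with a CK level of 0.6 or more. The minimum difference was thus close for the latter and distant for the former. The p-value cutoff of the authors' region test, 0.01, was less distant. The median p-value of that test was 0.00095 in intermediate regions and 7.9e-06 in regions with CK levels under 0.05. With a cutoff of 0.001, 6922 intermediate regions remained, with a median filled share of 0.637. Depth and the number of GpC sites per region were not used here, and their part in these levels was not tested.

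**Figure D1:**
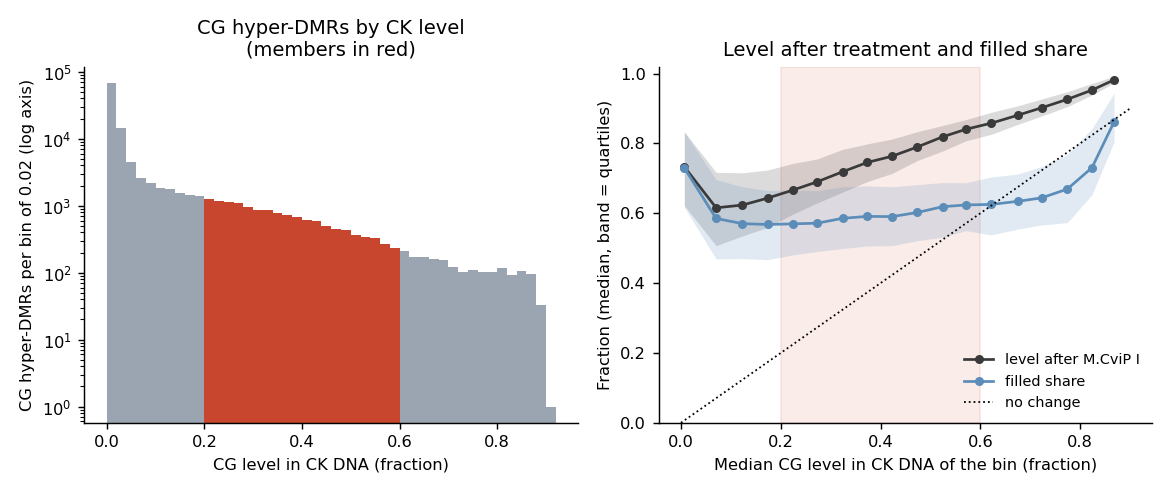
Left, number of CG hyper-DMRs per bin of 0.02 of the CG level in CK (fraction, x axis; log y axis), with the 13644 intermediate regions in red. Right, medians (points) and quartiles (bands) of the level after M.CviP I and of the filled share against the median CK level of bins of 0.05, with a dotted line where treated and CK levels are equal and the intermediate range shaded; the treated level rises across the shaded range from 0.666 to 0.841 while the filled share moves only from 0.570 to 0.624.

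The intermediate regions were longer and held more CG sites than the regions that were empty in CK. Their median length was 435 bp against 208 bp, and their median number of CG sites 25 against 11. Of the intermediate regions, 45.3% were 450 bp or longer, close to the longest region in the list, 501 bp, against 11.1% of the regions with a CK level under 0.05. CG sites were also more closely spaced, with 6.67 per 100 bp against 5.65, and the spacing tightened from 6.24 at CK levels of 0.2 to 0.3 to 7.66 at 0.5 to 0.6. The region test of the authors compares the sites of a region between 2 libraries, so a small gain passes it only with many sites or with sites of similar level, and these lengths and site counts are in part set by the call. With the number of sites held at 20 to 30, the median filled share was 0.581 in 5781 intermediate regions, 0.743 in 11729 regions with a CK level under 0.05, 0.557 from 0.05 to 0.2 and 0.671 at 0.6 or more. The order of the classes was the same as over all lengths.

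The regions with most CG sites give an impression of single loci. The richest one lies on chromosome 6 from 24694244 to 24694725 and holds 122 CG sites in 482 bp. Its CG level rose from 0.346 in CK to 0.836. The CHG hyper-DMR over it rose from 0.195 to 0.695, and the CHH hyper-DMR over it from 0.0150 to 0.628. Hence gains in every context met at this CG-dense stretch, although the CHG and CHH hyper-DMRs need not have its bounds. A second one, on the same chromosome from 24745430 to 24745930, holds 89 sites and rose from 0.419 to 0.631, with no CHG hyper-DMR over it. On chromosome 11, the region from 6217251 to 6217682 with 95 sites rose from 0.552 to 0.732, a filled share of 0.401. On chromosome 12, the region from 453208 to 453702 with 78 sites rose from 0.274 to 0.681, a filled share of 0.561. The filled shares of these CG-rich regions thus ranged from 0.365 to 0.750. At the other end of the site counts, the largest gain was found in a region of only 5 sites on chromosome 5 (25177207 to 25177265), which went from 0.2 to 1. A CG hypo-DMR that shares bases with it had a level of 0.6725 in the DMSO control, although it need not have the same bounds. All of these positions are those of the MSU7.0 assembly, and whether they lie in genes or transposons was not analysed here.

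Gains in the other contexts were looked for over the same bases. The CHG and CHH hyper-DMRs come from the same pair of libraries as the CG hyper-DMRs and are set beside them as a description. Of the intermediate regions, 10787 (79.1%, Wilson 95% interval 78.4 to 79.7%) shared at least 1 base with a CHG hyper-DMR, close to the 77.9% over all CG hyper-DMRs. With a CHH hyper-DMR, 13413 (98.3%) did so, against 95.5% over all CG hyper-DMRs. A longer region meets a hyper-DMR more easily, and the intermediate regions were long. With 20 to 30 CG sites, a CHG hyper-DMR was shared by 81.2% of intermediate regions. The share was 91.6% with CK levels under 0.05, 86.3% from 0.05 to 0.2 and 64.5% at 0.6 or more. A CHH hyper-DMR was then shared by 98.5% of both the intermediate and the empty regions. Of all intermediate regions, 10680 shared both contexts, 2733 CHH alone, 107 CHG alone and 124 neither. The share with a CHG hyper-DMR fell across the range, from 81.6% at CK levels of 0.2 to 0.3 to 73.2% at 0.5 to 0.6, and was 60.3% in the regions at 0.6 or more. The CHH share stayed between 97.5% and 98.6% in all parts of the range. When at least 50% of the region had to be covered by a single hyper-DMR, the shares were 52.6% for CHG and 90.9% for CHH.

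The CK levels of these overlapping CHG and CHH regions show what kind of methylation accompanied the intermediate CG level before treatment. CHG hyper-DMRs over intermediate regions had a median CK level of 0.0503, with quartiles of 0.0108 and 0.153, and CHH hyper-DMRs 0.0600, with quartiles of 0.0155 and 0.175. Over the regions that were empty of CG methylation the medians were 0.0071 and 0.0104. The CHG level rose with the CG level, through 0.0341, 0.0536 and 0.0674 to 0.108 in the successive parts of the intermediate range and to 0.163 at CG levels of 0.6 or more. The CHH level did not follow this course. It was 0.0563, 0.0623, 0.0619 and 0.0635 across the intermediate range and 0.0470 above it. After treatment the same regions had median levels of 0.698 in CHG and 0.555 in CHH. A hyper-DMR needs room for a gain, so regions that were already full of CHG or CHH methylation in CK do not enter these medians.

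**Figure D2:**
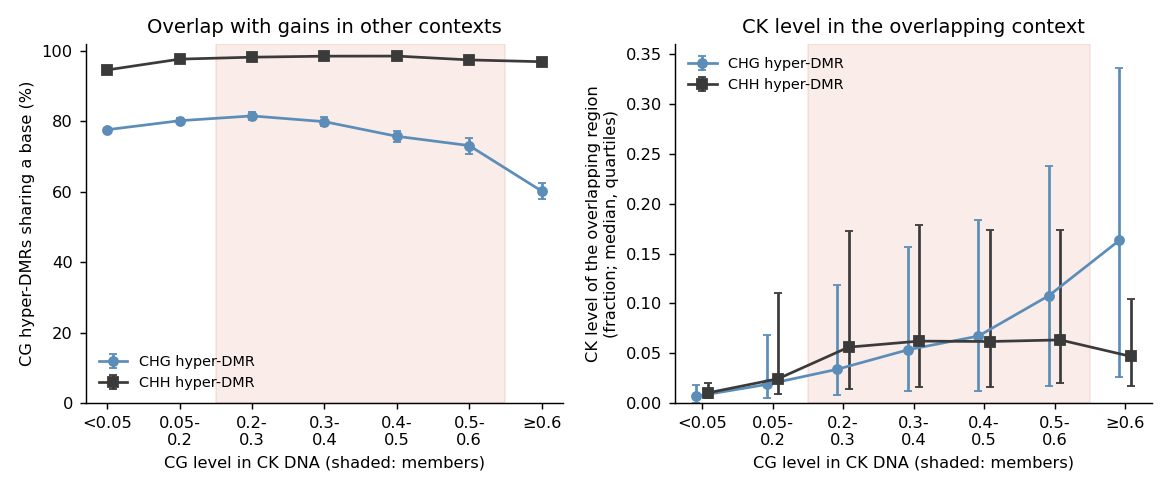
Left, percent of CG hyper-DMRs that share a base with a CHG or a CHH hyper-DMR by CG level in CK, with Wilson 95% intervals. Right, CK level (fraction) of the overlapping CHG and CHH hyper-DMRs, with medians as points and quartiles as bars. The shaded columns are the intermediate range, in which the CHG median rises from 0.0341 to 0.108 and the CHH median lies between 0.0563 and 0.0635.

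The 10680 intermediate regions with both overlaps were then sorted by the CK levels of the CHG and CHH hyper-DMRs over them, with a limit of 0.1. These hyper-DMRs may cover only part of the CG region. Places already full of CHG or CHH methylation in CK do not enter, which favours low levels. In 4803 regions, or 45.0%, both levels were under 0.1, which is called CG methylation nearly alone here. Only the CHG level was 0.1 or more in 1771 (16.6%), only the CHH level in 2013 (18.8%), and both in 2093 (19.6%). The same was done for the 64586 regions empty of CG methylation in CK and the 1094 regions at 0.6 or more that had both overlaps. Both levels were under 0.1 in 88.1% of the former and 33.1% of the latter. Among the latter, the pattern with CHG alone was the most frequent, at 40.9%, and that with CHH alone was found in 6.58%. In the intermediate regions with both overlaps, CG methylation nearly alone by this measure was the most frequent pattern. The others were found in comparable numbers. The gain differed little over these patterns, with median filled shares of 0.571 for CG nearly alone, 0.584 with CHG, 0.606 with CHH and 0.606 with both.

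How an intermediate mean came about within a region was examined from the spread between its CG sites. The t statistic, the difference and the number of sites in the list give back the variance between sites, pooled over the treated and the CK library. It was divided by the largest variance that both means allow, and the quotient is called the mosaic share. A mosaic share of 1 means that every site is either methylated in all reads or in none, and 0 that all sites have the same level. Sites with the same true level but only 3 reads each would give 0.333 on average, and more reads would give less. The median over the intermediate regions was 0.631 (0.627 to 0.635), with quartiles of 0.486 and 0.728. Most of these regions thus consisted of unequal sites in at least 1 of the libraries. With CK levels under 0.05 the median was 0.707, from 0.05 to 0.2 it was 0.618, and at 0.6 or more 0.217. Over all CG hyper-DMRs it was 0.688. A value of this size is therefore not particular to the intermediate regions and does not by itself describe their CK state. In 1570 intermediate regions, or 11.5% (11.0 to 12.1%), the mosaic share was under 0.333. The corresponding figures were 6.31% with CK levels under 0.05, 4.54% from 0.05 to 0.2, and 62.2% at 0.6 or more. They leave out regions with an infinite t statistic, which have no spread between sites. These were 1767 regions with CK levels under 0.05 and 2 at 0.6 or more. Small gains pass the region test more easily with sites of similar level, so these class values are in part set by the call. At gains of 0.3 to 0.5 the median mosaic share was 0.731 in 48 regions with a CK level of 0.6 or more. It was 0.650 in 8946 intermediate regions, 0.602 from 0.05 to 0.2 and 0.702 under 0.05. With 20 to 30 CG sites it was 0.237 at 0.6 or more and 0.652 in the intermediate regions.

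The value pools both libraries and does not say which of them was uneven. In regions that became nearly full, however, the treated library can contribute little variance. In 58 intermediate regions the treated level was 0.95 or more. The CK library alone then had a mosaic share whose median lay between bounds of 0.588 and 0.746. The lower bound was over 0.5 in 33 of them, so uneven CK sites were present. The upper bound was under 0.5 in 20, where the CK sites were less uneven. Sites with the same true level and 3 reads would give only 0.333 on average. The bounds were not compared with that value, so whether even CK sites were present was not tested. These 58 regions were short, with a median of 187 bp and 9.5 sites, and do not stand for the long ones.

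Regions with even sites differed from those with uneven sites in size and in context. At mosaic shares under 0.2 there were 725 regions with a median length of 116 bp and 9.61 CG sites per 100 bp. At 0.7 or more there were 4429 regions with a median of 463 bp and 6.44 sites per 100 bp. The CHH hyper-DMRs over the even regions had a median CK level of 0.0173, and those over the uneven regions 0.1004. A CHH level of 0.1 or more was found in 9.41% of the even and in 50.1% of the uneven regions that had a CHH hyper-DMR. CHG levels took another course, from 0.0702 at mosaic shares under 0.2 down to 0.0283 at 0.333 to 0.5 and up to 0.0612 at 0.7 or more. The filled share was 0.538 in the even and 0.638 in the uneven regions. Short regions pass the region test more easily with even sites, and of the 532 regions up to 100 bp, 79.5% had a mosaic share under 0.333, against 2.95% of the 7888 regions over 400 bp. Among regions of 450 bp or more, the CHH level in CK still went from 0.0182 in 34 even regions to 0.0947 in 2554 uneven ones. The CHG level in these long regions was higher in the even than in the uneven ones, 0.171 against 0.0624. Their CG level in CK differed as well, 0.507 in the even and 0.346 in the uneven ones. Over all lengths the CG levels in CK were 0.436 at mosaic shares under 0.2 and 0.327 at 0.7 or more. The CHG level rose with the CG level in CK, and its relation to the mosaic share at an equal CG level was not tested. In these long regions the filled share went from 0.413 to 0.632. At a given number of sites, uneven sites pass the region test only with a larger gain. Both differences in filled share are thus in part set by the call.

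**Figure D3:**
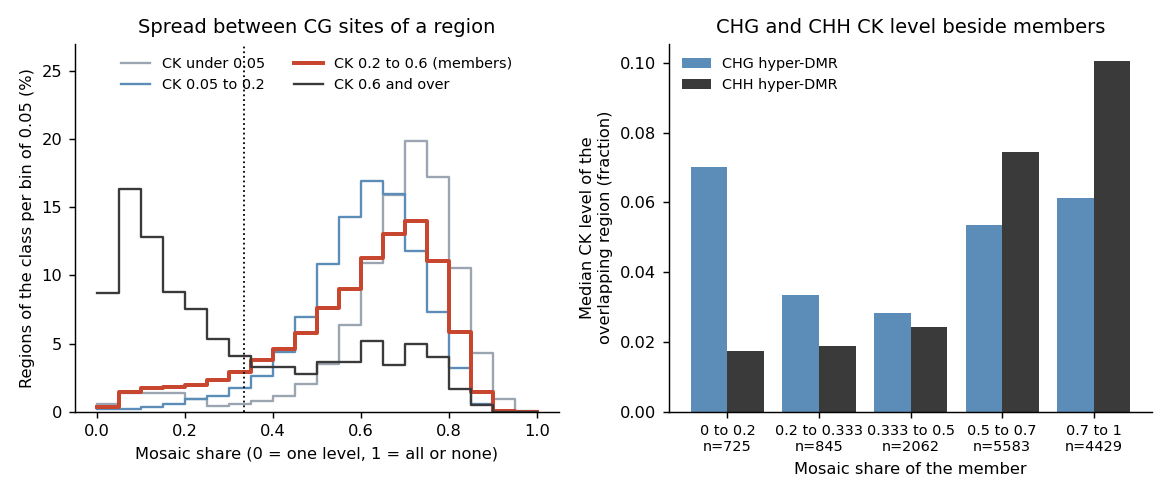
Left, distribution of the mosaic share (x axis; 0, one level at all sites; 1, sites all or none) as percent of the regions of each class per bin of 0.05, with a dotted line at 0.333. Regions with an infinite t statistic are left out. Right, median CK level (fraction) of the CHG and CHH hyper-DMRs over intermediate regions in 5 ranges of the mosaic share, with the number of intermediate regions under each; the CHH bars rise from 0.0173 to 0.1004.

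CG losses after zebularine came from the other pair of libraries, which the choice of regions did not use. Of the intermediate regions, 1168 (8.56%, Wilson interval 8.10 to 9.04%) overlapped a CG hypo-DMR by at least 1 base, against 2.14% of all CG hyper-DMRs. The share rose with the CK level, from 5.43% at 0.2 to 0.3 through 8.44% and 10.6% to 16.8% at 0.5 to 0.6, and it was 0.373% with CK levels under 0.05 and 29.2% at 0.6 or more. A region without CG methylation has none to lose, so a low share was set in advance for the regions empty in CK. CHG and CHH hypo-DMRs were rare. A CHG hypo-DMR was shared by 34 intermediate regions (0.249%), against 0.0865% of all CG hyper-DMRs, and a CHH hypo-DMR by 133 (0.975%), against 0.339%.

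The CG hypo-DMRs that overlapped had higher levels in their own control than the intermediate regions had in CK. Their median level was 0.833 in the DMSO control and 0.601 after zebularine, and most covered only part of the intermediate region. In 408 cases a CG hypo-DMR covered at least 50% of it. There the median level was 0.447 in CK and 0.694 in the DMSO control, and the DMSO control was the higher in 384 of 408 (94.1%). It was the higher in all 81 regions of this kind with a CK level under 0.05, in 115 of 119 from 0.05 to 0.2 and in 407 of 434 at 0.6 or more, so this was not particular to the intermediate regions. M.CviP I had raised the CK level to 0.768, and zebularine had lowered the DMSO level to 0.446. Where both regions overlapped each other by at least 90%, which leaves 98 cases, the levels were 0.437 in CK and 0.575 in the DMSO control, which was higher in 84 (85.7%), against 93.1% of the 216 such cases at CK levels of 0.6 or more. In 36 of the 98 the controls lay within 0.1 of each other. These regions were chosen for room to gain in CK and for a level to lose in the DMSO control. This choice, the single library per control, the DMSO given to the seedlings and any difference in their age or growth cannot be told apart here.

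The distance to CG hypo-DMRs was counted as 0 where the regions overlapped. The median distance to the nearest CG hypo-DMR was 1113 bp (1082 to 1143 bp), against 1685 bp for the regions empty in CK and 351 bp for those at 0.6 or more. It shortened across the range from 1273 bp at CK levels of 0.2 to 0.3 to 795 bp at 0.5 to 0.6. Within 500 bp, 4162 intermediate regions (30.5%) had a CG hypo-DMR, against 17.2% of all CG hyper-DMRs. Of these, 2994 lay near a CG hypo-DMR without touching it, which is 21.9% of the intermediate regions, against 13.0% of the empty ones and 15.0% of all CG hyper-DMRs. Over the 12476 intermediate regions without an overlap the median distance was 1277 bp, against 1693 bp for the empty ones. With 20 to 30 CG sites the median distances were 1129 bp for intermediate and 1578 bp for empty regions, so the order held at an equal number of sites. The distance differed by context pattern. It was 680 bp where only CHG had a CK level of 0.1 or more and 1526 bp where only CHH did, with 1030 bp for CG nearly alone and 1311 bp for both. Of these patterns, CHG with little CHH methylation had the shortest median distance to a CG loss.

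**Figure D4:**
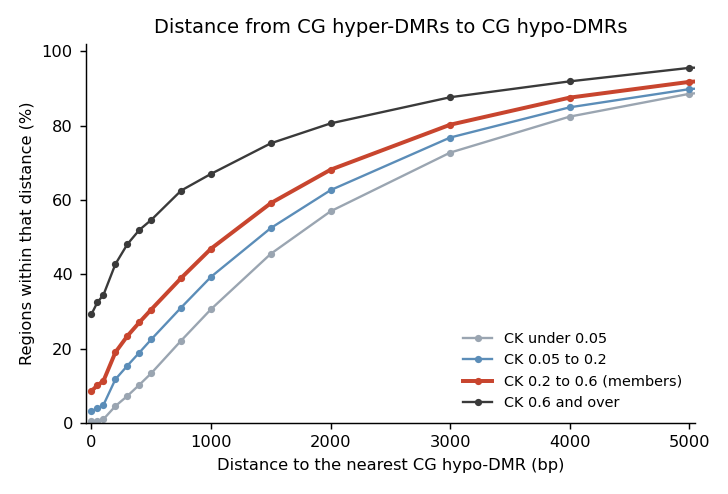
Percent of CG hyper-DMRs (y axis) within a given distance in bp (x axis) of the nearest CG hypo-DMR, for the 4 classes of CK level. The curve of the intermediate regions, in red, lies above both classes of lower CK level and below the class of 0.6 and over, with 46.9% of the intermediate regions within 1000 bp against 30.6% of those under 0.05.

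Other CG hyper-DMRs were no more frequent around the intermediate regions than around the rest. Within 500 bp, 6964 of them (51.0%) had another CG hyper-DMR, against 57.1% over all CG hyper-DMRs, and 5179 (38.0%) had 1 with a CK level under 0.05, against 46.5%. A further intermediate region was found within 500 bp of 1133 (8.30%), and an intermediate region lay within that distance of 7.31% of all CG hyper-DMRs. In 897 cases (6.57%) an empty CG hyper-DMR lay on one side and a CG hypo-DMR on the other, both within 500 bp, against 4.57% over all CG hyper-DMRs and 7.36% of those at 0.6 or more. Most intermediate regions were single. With gaps of up to 500 bp allowed, 12511 stood alone, 527 pairs and 25 triples were found, and 1 run held 4 regions. That run spans chromosome 1 from 8079215 to 8081180 with 103 CG sites in its regions, CK levels from 0.236 to 0.520 and treated levels from 0.650 to 0.869.

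All 12 chromosomes held intermediate regions in similar proportion. Their share of the CG hyper-DMRs of a chromosome ranged from 10.3% on chromosome 1 to 14.3% on chromosome 11, and the median filled share from 0.573 on chromosome 11 to 0.599 on chromosome 3. Of 753 windows of 500 kb, 749 held at least 1, with a median of 18 and a maximum of 43 on chromosome 10 from 18000001 to 18500000. Regions with a mosaic share under 0.333 made up 8.57% of the intermediate regions on chromosome 7 and 16.3% on chromosome 11.

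A stretch of 200 kb on chromosome 12 (20500001 to 20700000) stood apart from this even picture, and it was picked out after its values were seen. Among 643 windows of 500 kb with at least 10 intermediate regions, the window that begins with it had the lowest median filled share, 0.394, and the next lowest was 0.483, against a median of 0.588 over the windows. The 20 intermediate regions of the stretch had filled shares from 0.190 to 0.441, with a median of 0.285, and mosaic shares from 0.178 to 0.431. In the 18 others of the same window the median filled share was 0.637, and in the 811 others of chromosome 12 it was 0.580. In the stretch, CG levels in CK lay between 0.2002 and 0.329 and rose to between 0.354 and 0.609. The CHG hyper-DMRs over these regions had CK levels between 0.0894 and 0.242. Their median was 0.163, against 0.0424 on the rest of the chromosome. The CHH hyper-DMRs over these regions had CK levels of at most 0.017. Even CHH gained little there, to a median of 0.272 over these regions, against 0.539 over the other intermediate regions of the chromosome.

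The whole stretch shared these properties, and not only its intermediate regions. Of its 167 CG hyper-DMRs, 143 (85.6%) had CK levels from 0.05 to under 0.2, against 13.1% on the rest of the chromosome, and only 2 had a CK level under 0.05. CG sites were dense, at 9.43 per 100 bp against 6.09. CG hypo-DMRs were sparse, with 33 in the stretch or 165 per Mb, against 559 per Mb on chromosome 12. None of the 20 intermediate regions shared a base with 1, and the nearest lay between 3586 and 36227 bp away, with a median of 20906 bp against 937 bp on the rest of the chromosome. Without these 20, the median filled share of the other 13624 intermediate regions was 0.588, as with them, and the median mosaic share 0.632. The sequence and the mapping of reads there were not analysed, and their part in these values was not tested.

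**Figure D5:**
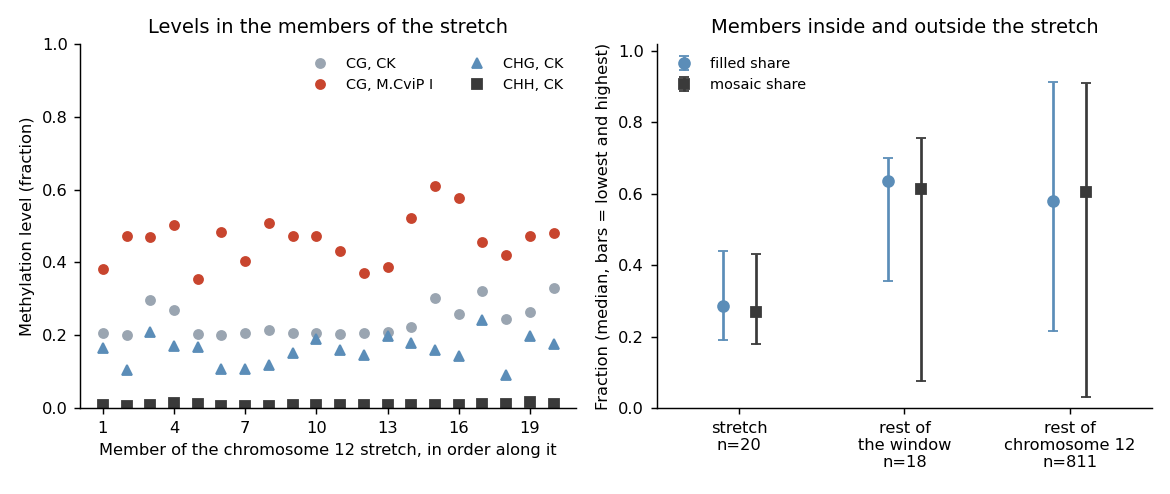
Left, methylation levels (fraction) of the 20 intermediate regions of the chromosome 12 stretch in their order along it, for CG in CK and after M.CviP I and for the overlapping CHG and CHH hyper-DMRs in CK. Right, median filled share and mosaic share with the lowest and highest values as bars, in the stretch (20 regions), the rest of its 500 kb window (18) and the rest of chromosome 12 (811); the filled shares of the stretch end at 0.441, below the medians of 0.637 and 0.580 outside it.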

How the data were processed

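BS-seq reads of 4 libraries were trimmed by the authors with Fastp and mapped to MSU7.0 with Bismark, and DMRs were called with CGmapTools (p-value under 0.01, difference of at least 0.1, positions with at least 3 reads). Tool versions are not given in the sources used here. Levels were deposited as a fraction, averaged over the cytosines of each region. The authors' p-value compares these cytosines between both libraries and is unadjusted, and their t statistic was deposited as a score. From t and the number of cytosines the p-value was recomputed within 1% for all 13644 regions. The lists have no header, so treated and CK levels were told apart by the direction each list is named for and by the study's convention of subtracting CK from treated. The columns of differences were recomputed from the levels.

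Regions were selected by CK level and compared by medians, quartiles, shares with Wilson intervals and order-statistic intervals of 95%, with Python 3.11.15, numpy 2.4.6, pandas 2.3.3, scipy 1.17.1 and matplotlib 3.10.9. Overlaps required 1 shared base, the CHG or CHH region with the longest shared stretch gave the level, and distances run between region ends. The functions were tested on simulated data. With 1 library per condition, no test of the treatment was possible. The regions, classes and limits were chosen with earlier results of these data known. Regions named singly were those with most CG sites per part of the CK range, the largest gain, the regions at the bounds, the longest run and the fullest window, and the chromosome 12 stretch was chosen after its values were seen. GpC content, gene annotation and sequences were not analysed here, since they need the MSU7.0 genome.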

Additional observations from a re-analysis of the deposited data

How the results depend on the processing

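The alternatives were a p-value cutoff of 0.001, at least 10 CG sites, a CK level from 0.3 to under 0.5, merging within 100 bp, means in place of medians, coverage of 50% or more of the region, a CG hypo-DMR with a loss of at least 0.2 and, chosen after seeing the data, 20 to 30 CG sites. Of 43 values, 13 stayed within the 95% interval of the reported one (counts within 1.5 times) and 30 moved. Those intervals are narrow at this number of regions. The list fixes the sign of the gain, and so its direction was the same throughout.

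With a p-value cutoff of 0.001 there were 6922 regions, with a median gain of 0.423, a filled share of 0.637, a mosaic share of 0.644, a CHG hyper-DMR in 83.1%, a CG hypo-DMR in 9.36%, and a CHG level of 0.0559 in CK. With a CK level from 0.3 to under 0.5 there were 6496 regions, with a gain of 0.359, a filled share of 0.591, a CHG hyper-DMR in 78.3%, a CHH hyper-DMR in 98.6%, a CG hypo-DMR in 9.30%, a CHG level of 0.0585 in CK and 1055 bp to the nearest CG hypo-DMR. With at least 10 CG sites the filled share was 0.584, the mosaic share 0.640 and the CHG share 80.3%. With 20 to 30 CG sites the gain was 0.370, the filled share 0.581, the mosaic share 0.652, the CHG share 81.2% and the CG hypo-DMR share 8.01%. The mean gain was 0.384 and the mean mosaic share 0.587. With 50% or more of the region covered, the shares were 52.6% for CHG, 90.9% for CHH and 2.99% for CG hypo-DMRs, and the CHG level in CK was 0.0814. The nearest CG hypo-DMR with a loss of at least 0.2 was 3466 bp away, as there are fewer of them. Fewer regions or a stricter overlap lower the counts by construction. A stricter p-value cutoff keeps regions with larger gains for their number and spread of sites, so its higher gain and filled share are in part set by it. Otherwise the cause was not tested.

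No paired analysis was possible because 1 library stands for each condition. The planned counts of GpC sites and of genes were not run. A minimum depth was not varied, as depth is missing from the lists, and how precise the level of any 1 region is remains unknown.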

Other observations

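Regions that followed each other closely were not placed evenly along the chromosome. As the next CG hyper-DMR within 100 bp, a region with a CK level under 0.05 came after an intermediate region, in the direction of rising coordinates, in 895 cases and before it in 235. Where it came after, the intermediate region had a median length of 488 bp and the empty one 204 bp, and where it came before, the lengths were 460 bp and 486 bp. In either case the first region of the pair was close to the longest length in the list, 501 bp. Over distances of up to 500 bp the counts were 2866 after and 2790 before. The unequal order was not particular to the intermediate regions. Within 100 bp, an empty region came after a region with a CK level from 0.05 to 0.2 in 627 cases and before it in 257. For regions at 0.6 or more the counts were 94 after and 21 before. The way in which the caller opens and closes regions was not tested.

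Regions with a mosaic share under 0.333 were spread over 629 windows of 500 kb, with a median of 2 in these, and the 3 windows with most of them held 50 of 1570. The chromosome 12 window from 20500001 to 21000000 held 22 among 38 intermediate regions, a window on chromosome 11 from 6000001 to 6500000 held 15 among 37, and a window on chromosome 8 from 3000001 to 3500000 held 13 among 30. In the windows on chromosomes 11 and 8 the median filled shares were 0.589 and 0.566, near the value over all intermediate regions, so the low gain of the chromosome 12 window was not found there.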
